A study of Arabidopsis thaliana with 4 samples.

Results

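The NAC genes of the miR164 group are 7 Arabidopsis thaliana transcription factor genes, taken here by locus. They are CUC1 (AT3G15170), CUC2 (AT5G53950), CUC3 (AT1G76420), NAC1 (AT1G56010), ORE1 (AT5G39610), NAC100 (AT5G61430) and NAC080 (AT5G07680). All 7 were found among the 37573 nuclear loci of the deposited tables, and all 7 passed the filter on low counts, which kept 20971 loci for testing. Messenger RNA libraries had been made with a stranded kit from whole seedlings grown on soil for 14 days under long days, with 2 libraries of the line Col-LUC and 2 of tho2-8, a mutant of the THO complex subunit gene THO2. The libraries were assigned to a genotype by their titles, because the genotype label gives Col-LUC for all 4. Neither the nature of the tho2-8 allele nor the content of the Col-LUC line is given in the sources used here. The labels do not say whether replicates came from different plants, so the spread that each p-value is set against may be technical.

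NAC proteins are plant-specific transcription factors that share a DNA-binding domain at the amino end. The microRNA miR164 pairs with a nearly complementary stretch inside the coding sequence of some of them and directs cutting of the mRNA by ARGONAUTE1, which keeps these messages low and sharpens where they are expressed. CUC1, CUC2 and CUC3 mark and maintain the boundaries between organs and around the shoot meristem, NAC1 acts in auxin-dependent lateral root formation, and ORE1 promotes leaf ageing and cell death, a role held back by miR164 in young leaves. CUC3 is the member of the CUC group that miR164 does not target. The THO complex, part of TREX, couples transcription to mRNA packaging and export and has been linked to small RNA production in Arabidopsis, so the comparison of tho2-8 with Col-LUC bears on the level of microRNA target messages.

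The mature microRNA and the sites in the members are shown first because they are what sets CUC3 apart from the other members. The capitals in the microRNAs mark the seed, bases 2 to 8, and the sequences are read from the TAIR10.1 genome at the RefSeq annotation of the mature arms. The mature arm of MIR164b is identical to that of MIR164a, and that of MIR164c differs at the last base.
miR164a: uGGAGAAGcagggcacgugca
miR164c-5p: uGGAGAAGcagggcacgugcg

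Each spliced mRNA was searched for the 21-base window that pairs best with miR164a. A position without a Watson-Crick pair counted 1 and a G:U pair counted 0.5, so that a score of 0 is full pairing. Sites are given 5′ to 3′ on the coding strand, and capitals mark the bases that form no Watson-Crick pair with the microRNA.
NAC100 site: tCTacgtgccctgcttctcca
NAC080 site: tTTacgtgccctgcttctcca
NAC1 site: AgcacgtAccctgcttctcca
CUC1 site: AgcacgtgTcctgTttctcca
CUC2 site: AgcacgtgTcctgTttctcca
ORE1 site: CTcacgtgAcctgcttctccG
CUC3 best window: CAcaTgCTAcTAgAttctcca

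NAC100 and NAC080 had the best scores of all 31342 genes searched, at 1.5, followed by NAC1, CUC1 and CUC2 at 2.0. CUC1 and CUC2 carried the same 21 bases. The ORE1 site scored 3.5, a value reached by 18 genes or 0.0574% of those searched, and its 4 unpaired positions included 1 G:U pair. The best window of CUC3 scored 8.0, close to the median of 7.5 over all genes, and 64.1% of genes had a lower score. At a score of 2.5 or less there were 6 genes, all of the NAC family. The one among them that is no member was AT3G12977, whose site AgcaTgtAccctgcttctcca scored 2.5. These scores describe letters in annotated transcripts and are not evidence of cutting.

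**Figure D1:**
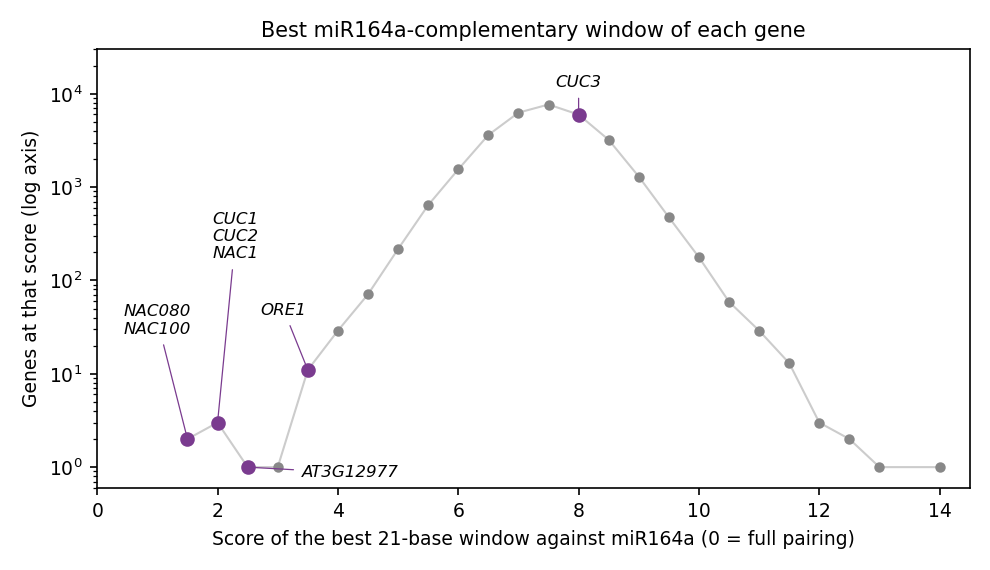
Number of genes (log axis) at each score of the best 21-base window against miR164a, where 0 is full pairing; labelled points hold the named genes. The sites of NAC080, NAC100, CUC1, CUC2 and NAC1 lie between 1.5 and 2.0, ORE1 at 3.5, and CUC3 at 8.0 in the bulk of all genes.

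All 6 sites lay in coding sequence of the last exon. In TAIR10.1 coordinates they are at chr3:5111137-5111157 on the plus strand for CUC1, chr5:21902301-21902321 on the minus strand for CUC2 and chr1:20947142-20947162 on the minus strand for NAC1. The ORE1 site is at chr5:15858797-15858817 and the NAC100 site at chr5:24701687-24701707, both on the minus strand, and the NAC080 site is at chr5:2436958-2436978 on the plus strand. NAC1 overlaps AT1G56000 and AT1G08087 on the other strand, over 957 of its 2609 exon bases for both genes together. Of its 2584 distinct 50-base mRNA stretches, 99 are shared with the mRNA of another gene. Whether counting used strand is not stated in these sources, so the values of NAC1 are uncertain. Levels are given in CPM, counts scaled to a library total of 1000000. AT1G08087 was at 0 counts in every library, and AT1G56000 stood at 27.1 and 34.5 CPM in Col-LUC, against 27.9 and 34.5 CPM in tho2-8. The other 6 members overlap no annotated gene and share no 50-base stretch with the mRNA of another gene.

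Library totals over nuclear genes ran from 17119534 to 17877941 counts, so that 3 counts correspond to 0.168 to 0.175 CPM. The mRNA of THO2 itself stood at 83.7 and 81.1 CPM in Col-LUC, against 109 and 102 CPM in tho2-8, with a log2 fold change of 0.33 ± 0.15 and an adjusted p of 0.34 by edgeR, so its level does not check the genotype labels. Root markers were unequal between libraries. Their mean log2 level over 10 genes, centred on the Col-LUC mean, was 0.39 and -0.39 in Col-LUC replicates 1 and 2 and -0.29 and -0.62 in tho2-8, while their summed level was 149 and 107 CPM in Col-LUC, against 126 and 132 CPM in tho2-8. Leaf photosynthesis genes such as RCA were abundant, and all 6 tested markers of floral organs were detected in every library, at a summed 11.6 to 37.3 CPM. In whole seedlings, fewer cells of a type and less RNA per cell cannot be told apart.

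None of the 7 genes was called different between the genotypes. In edgeR's quasi-likelihood test, adjusted over all tested genes by the Benjamini-Hochberg method, 0 of 7 had an adjusted p under 0.05, against 2 of 20971 genes, or 0.00954%. DESeq2 also called 0 of 7, where it called 2.65% of all genes with an adjusted p. Estimated log2 fold changes (tho2-8 minus Col-LUC) were below 0 for 6 of the 7 genes and above 0 for CUC2, against 48.5% of all tested genes below 0. Their median was -0.22, beside 0.01 over all tested genes. At an unadjusted p under 0.05 NAC1 and NAC080 were lower, 2 of 7 against a background of 7.18%, and 0 of 7 were higher, against a background of 8.40%. The CPM of both tho2-8 libraries lay below that of both Col-LUC libraries for CUC1, NAC1 and NAC080, 3 of 7 against 20.3% of all tested genes. It lay above that of both Col-LUC libraries for 0 of 7, against 27.9%. The members and lists were chosen with earlier results of these data known, so such counts here and below are a description only.

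**Figure D2:**
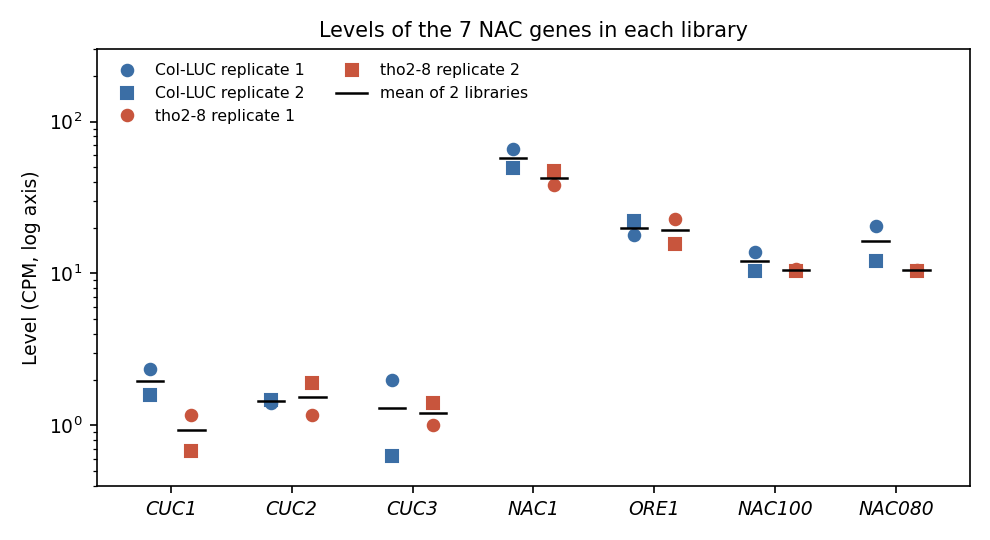
Level of each of the 7 genes in CPM (log axis) in the 2 Col-LUC (blue) and 2 tho2-8 (red) libraries, with bars at the mean of each genotype. The tho2-8 points lie below both Col-LUC points for CUC1, NAC1 and NAC080 and overlap them for CUC2, CUC3, ORE1 and NAC100.

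Levels between genes were compared per kilobase of exon. NAC1 ran from 14.7 to 25.5 CPM per kb over the 4 libraries and ORE1 from 11.9 to 17.4. NAC080 ran from 6.38 to 12.7 and NAC100 from 6.32 to 8.44 CPM per kb. CUC1 ran from 0.544 to 1.89, CUC2 from 0.811 to 1.32 and CUC3 from 0.433 to 1.38 CPM per kb. In this order each gene overlapped its neighbour in range, except between NAC100 and CUC1, where the lowest NAC100 value exceeded the highest CUC1 value. Among 116 annotated NAC genes, NAC1 ranked 11 and ORE1 19 by mean CPM per kb, while the CUC genes ranked 63, 66 and 70.

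CUC1, the CUC gene with the most negative estimate, stood at 2.34 and 1.59 CPM in Col-LUC, against 1.17 and 0.673 CPM in tho2-8. These levels rest on 40, 28, 21 and 12 counts. Exact (Clopper-Pearson) 95% intervals, which cover counting error only, ran from 1.67 to 3.18 CPM in Col-LUC replicate 1 and from 0.348 to 1.18 CPM in tho2-8 replicate 2. Those of Col-LUC replicate 2, from 1.05 to 2.29 CPM, and of tho2-8 replicate 1, from 0.727 to 1.80 CPM, overlapped. The log2 fold change of CUC1 was -1.10 ± 0.53 (SE, n = 2 per genotype), with a 95% interval from -2.35 to 0.15 and an adjusted p of 0.37 by edgeR.

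CUC2, which acts redundantly with CUC1 in cotyledon separation and shapes leaf margins, stood at 1.40 and 1.47 CPM in Col-LUC, against 1.17 and 1.91 CPM in tho2-8. The tho2-8 libraries lay on either side of the Col-LUC pair. Its log2 fold change was 0.06 ± 0.49, with a 95% interval from -1.09 to 1.22 and an adjusted p of 0.966 by edgeR. CUC1 and CUC2, whose miR164 sites are identical, both stood at 1.17 CPM in tho2-8 replicate 1. In tho2-8 replicate 2 CUC1 stood at 0.673 CPM and CUC2 at 1.91 CPM. Whether the genotype difference itself differs between these genes was not tested.

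CUC3, the boundary gene without a site, stood at 1.99 and 0.623 CPM in Col-LUC, against 1.01 and 1.40 CPM in tho2-8. Both tho2-8 values lay between the Col-LUC values, and the replicates of Col-LUC differed by 1.43 on the log2 scale, the widest replicate difference among the members. Its log2 fold change was -0.13 ± 0.64, with a 95% interval from -1.64 to 1.38 and an adjusted p of 0.946 by edgeR. At 11 to 34 counts a library, a 2-fold difference of CUC2 or CUC3 in either direction lay inside the interval and was not detectable with these libraries.

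NAC1 had the highest mean level per kilobase of the members, although ORE1 exceeded it in tho2-8 replicate 1, at 17.4 against 14.7 CPM per kb. NAC1 stood at 66.5 and 49.3 CPM in Col-LUC, against 38.3 and 47.2 CPM in tho2-8. The groups did not overlap, with Col-LUC replicate 2 and tho2-8 replicate 2 the nearest pair. The log2 fold change was -0.46 ± 0.18 (SE, n = 2 per genotype), with a 95% interval from -0.89 to -0.03, an unadjusted p of 0.0383 and an adjusted p of 0.294 by edgeR. DESeq2 gave an adjusted p of 0.384. Without Col-LUC replicate 1, the library with the highest NAC1 and root marker levels, the estimate was -0.28 with an unadjusted p of 0.195 by edgeR, and without tho2-8 replicate 1 it was -0.36 with an unadjusted p of 0.159. Scaled by library totals, NAC1 had an unadjusted p of 0.062.

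ORE1, the promoter of leaf ageing, stood at 17.9 and 22.1 CPM in Col-LUC, against 22.9 and 15.6 CPM in tho2-8. The genotypes overlapped fully, with the highest and the lowest value both in tho2-8. Its log2 fold change was -0.09 ± 0.25, with a 95% interval from -0.69 to 0.51 and an adjusted p of 0.90 by edgeR.

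NAC100 and NAC080 are close relatives of ORE1 and have the sites nearest to full pairing. NAC080 stood at 20.6 and 12.1 CPM in Col-LUC, against 10.6 and 10.4 CPM in tho2-8. The groups did not overlap, but Col-LUC replicate 2 lay nearer to the tho2-8 libraries than to its own replicate. The log2 fold change was -0.66 ± 0.27 (SE, n = 2 per genotype), with a 95% interval from -1.31 to -0.02, an unadjusted p of 0.0456 and an adjusted p of 0.312 by edgeR. Without Col-LUC replicate 1 the estimate was -0.28, with an unadjusted p of 0.343 by edgeR, and without tho2-8 replicate 1 or 2 the unadjusted p was 0.0529 and 0.082.

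NAC100 stood at 13.8 and 10.4 CPM in Col-LUC, against 10.7 and 10.4 CPM in tho2-8. Col-LUC replicate 1 was the highest, and the other libraries were nearly equal. Its log2 fold change was -0.22 ± 0.23, with a 95% interval from -0.77 to 0.33 and an adjusted p of 0.682 by edgeR.

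**Figure D3:**
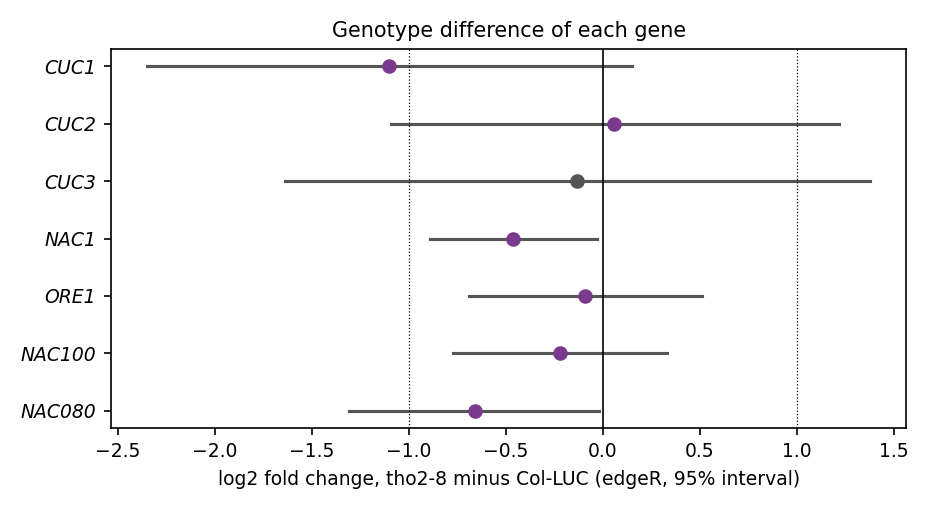
Log2 fold change (tho2-8 minus Col-LUC) of each gene by edgeR, with its unadjusted 95% interval; the grey point is CUC3, which has no miR164 site, and dotted lines mark a 2-fold change. Intervals of CUC1, NAC1, ORE1, NAC100 and NAC080 end below a 2-fold rise, while those of CUC2 and CUC3 extend past it.

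The upper ends of these intervals show how far the messages could be higher in tho2-8, given a spread between libraries that may be technical. For 5 of the 7 genes, CUC1, NAC1, ORE1, NAC100 and NAC080, the interval lay wholly below a log2 fold change of 1, and for CUC2 and CUC3 it did not. The intervals are not adjusted for the number of genes. Summed over the 6 genes with a site, the level was 123 and 96.9 CPM in Col-LUC, against 84.8 and 86.2 CPM in tho2-8, with NAC1 the largest part. Col-LUC replicate 1 held the highest value of 5 of the 7 genes, all except CUC2 and ORE1. It was also the library with the highest mean of root markers. Its means of floral organ markers (-0.96) and leaf photosynthesis markers (-0.24) were the lowest. In tho2-8 the root marker mean was lower in replicate 2 (-0.62 against -0.29), while NAC1 was lower in replicate 1 (38.3 against 47.2 CPM). The part of tissue in these differences was not tested. AT3G12977, the NAC gene with a site that is no member, was also highest in Col-LUC replicate 1. It stood at 7.07 and 2.72 CPM in Col-LUC, against 4.03 and 3.48 CPM in tho2-8. Its log2 fold change was -0.39 ± 0.47, with an adjusted p of 0.731 by edgeR. Outside the NAC family, tested genes with a window score of 3.0 or 3.5 had log2 fold changes from -0.58 ± 0.51 to 0.53 ± 0.15. The gene at the upper end had an unadjusted p of 0.011 and an adjusted p of 0.21 by edgeR. That at the lower end rested on 14 to 28 counts a library.

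The microRNA itself was not measured, and 0 of the 3 MIR164 loci were found by locus in the deposited tables. Of 8 genes of microRNA production and action edgeR called 0 and DESeq2 called 0, and the median log2 fold change was -0.05. At an unadjusted p under 0.05 there was 1 higher and 0 lower, beside 8.40% and 7.18% of all tested genes. DCL1, the enzyme that cuts microRNA precursors, stood at -0.10 ± 0.16, and SE, its zinc finger partner, at -0.13 ± 0.14 on the log2 scale. HEN1, which methylates microRNA ends, stood at 0.32 ± 0.20. The one gene past the unadjusted threshold was ABH1, the large subunit of the nuclear cap-binding complex, at 58.0 and 49.1 CPM in Col-LUC, against 73.6 and 71.0 CPM in tho2-8, with an adjusted p of 0.27 by edgeR.

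Partners of the CUC genes in boundaries and the meristem also gave 0 calls by edgeR and by DESeq2 among 13 tested of 15 listed genes. Their median log2 fold change was 0.05. At an unadjusted p under 0.05 there was 1 higher and 0 lower, beside 8.40% and 7.18% of all tested genes. That gene was AS1, a MYB factor that keeps meristem genes off in leaves, at 53.5 and 52.0 CPM in Col-LUC, against 67.2 and 73.3 CPM in tho2-8. DA1, a growth-limiting peptidase, stood at 0.36 ± 0.16 on the log2 scale. BOP1 and BOP2, paired co-regulators at leaf bases, stood at -1.11 ± 0.76 and -0.41 ± 0.20. STM, the homeobox gene that CUC1 and CUC2 activate, stood at 24.1 and 23.6 CPM in Col-LUC, against 16.8 and 42.2 CPM in tho2-8. The replicates of tho2-8 thus lay on either side of Col-LUC, as they did for KNAT1, another meristem homeobox gene, at 39.7 and 110 CPM beside 56.1 and 47.2 CPM in Col-LUC. Without tho2-8 replicate 1, a fit in which edgeR called 710 of all genes, KNAT1 was called higher, at 1.02 with an adjusted p of 0.0233, and without tho2-8 replicate 2 its estimate was -0.38. CUC2 had the same order, with tho2-8 replicate 1 lowest and replicate 2 highest. Summed shoot meristem markers were 148 and 147 CPM in Col-LUC and 118 and 238 CPM in tho2-8, with CLV3 at 0 in all libraries. Their part in the CUC2 values was not tested.

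Among genes around NAC1, 5 had estimates above 0 and 1 below, beside 10793 and 10178 of all tested genes. Of 6 tested genes of the auxin and lateral root list, of 8 listed, edgeR called 0 and DESeq2 called 0, while at an unadjusted p under 0.05 there were 3 higher and 0 lower, beside 8.40% and 7.18% of all tested genes, and the median log2 fold change was 0.43. These were TIR1, the auxin receptor upstream of NAC1, at 0.53 ± 0.16, and the auxin response factors ARF19 at 0.44 ± 0.15 and ARF7 at 0.42 ± 0.15 on the log2 scale, with adjusted p between 0.22 and 0.259 by edgeR. TIR1 stood at 139 and 146 CPM in Col-LUC, against 208 and 212 CPM in tho2-8. AIR3, a subtilisin-like protease gene that NAC1 activates, stood at 62.9 and 80.8 CPM in Col-LUC, against 65.3 and 27.6 CPM in tho2-8. Only tho2-8 replicate 2 stood clear of the other libraries for AIR3, with a log2 fold change of -0.66 ± 0.38. Without tho2-8 replicate 1, where 710 of all genes were called, AIR3 was called lower, at -1.46 with an adjusted p of 0.00658 by edgeR, and without tho2-8 replicate 2 it stood at -0.15 with an unadjusted p of 0.569. Of the 10 root markers, 7 had estimates below 0 and 3 above, with a median of -0.64. At an unadjusted p under 0.05 there were 3 lower and 1 higher, beside 7.18% and 8.40% of all tested genes. The higher one was SCR, an endodermis regulator, at 0.33 ± 0.14, while SHR stood at 0.44 and PLT2 at 0.13 on the log2 scale. The root endodermis gene CASP1 stood at 26.5 and 13.5 CPM in Col-LUC, against 10.9 and 5.21 CPM in tho2-8, and CASP2 at -1.36 ± 0.46 on the log2 scale. DESeq2 called CASP1 (adjusted p = 0.0411) and edgeR did not (adjusted p = 0.228). In the fit without tho2-8 replicate 1 edgeR called CASP1 lower, at -2.0 with an adjusted p of 0.0108, and CASP2 lower, at -2.09 with an adjusted p of 0.0282. Neither was called without Col-LUC replicate 1, where CASP1 stood at -0.82 and CASP2 at -0.97, or without tho2-8 replicate 2, where they stood at -0.88 and -0.89.

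Upstream of ORE1, edgeR called 0 and DESeq2 called 0 of 12 tested regulators, and the median log2 fold change was 0.04. At an unadjusted p under 0.05 there was 1 higher and 0 lower, beside 8.40% and 7.18% of all tested genes. The gene past that threshold was EIL1, an EIN3-like transcription factor of ethylene signalling. It stood at 113 and 133 CPM in Col-LUC, against 164 and 178 CPM in tho2-8. PIF5, which activates ORE1 in the dark, stood at 0.37 ± 0.22, ABI5 at -0.94 ± 0.58 and EIN2 at 0.22 ± 0.16 on the log2 scale. Among 12 tested outputs and partners of ORE1, of 13 listed, edgeR called 0 and DESeq2 called 0. Their median was -0.17, and at an unadjusted p under 0.05 there was 1 higher and 1 lower, beside the same shares of all tested genes. ORS1, a sister NAC gene that also promotes ageing, stood at 19.5 and 20.7 CPM in Col-LUC, against 14.3 and 12.0 CPM in tho2-8, with a log2 fold change of -0.64 ± 0.20 and an adjusted p of 0.224 by edgeR. GLK2, a chloroplast development factor whose protein ORE1 binds, stood at 109 and 152 CPM in Col-LUC, against 234 and 179 CPM in tho2-8. VNI2, a NAC gene, stood at 0.32 ± 0.14 and ACS2, an ethylene synthesis gene that ORE1 activates, at -1.36 ± 0.62 on the log2 scale.

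**Figure D4:**
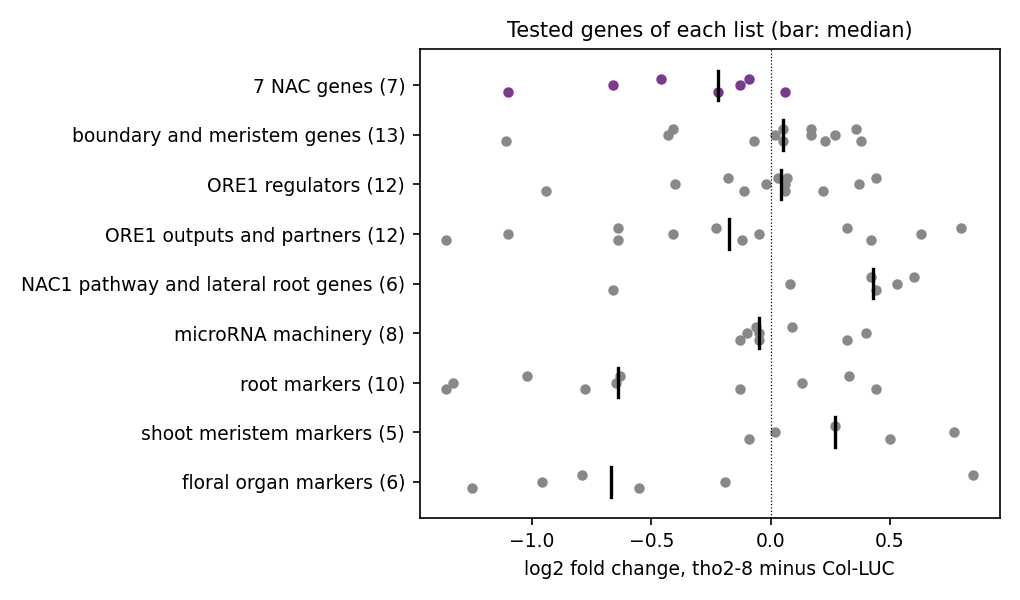
Log2 fold change (tho2-8 minus Col-LUC) of each tested gene in the lists, with the number tested in brackets and a bar at the median. The medians are -0.22 for the 7 NAC genes, 0.43 for the NAC1 pathway and lateral root genes and -0.64 for root markers, and the points of every list spread to both sides of 0.

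In the rest of the NAC family 74 of 109 genes were tested. edgeR called 0 of them, at an unadjusted p under 0.05 there were 6 higher and 6 lower, near the background of 8.40% and 7.18% of all tested genes, and the median log2 fold change was -0.05. DESeq2 called 1, NAC003 (AT1G02220), at 50.9 and 32.0 CPM in Col-LUC, against 18.9 and 17.3 CPM in tho2-8, with an adjusted p of 0.00133 by DESeq2 and 0.128 by edgeR. Its log2 fold change was -1.22 ± 0.22, and of the fits that left out 1 library edgeR called it only in that without tho2-8 replicate 1, at -1.33 with an adjusted p of 0.0171, where 710 of all genes were called. NAC13, a regulator of the mitochondrial stress response, stood at 0.79 ± 0.18, and NAC062, a membrane-bound factor, at 0.66 ± 0.17 on the log2 scale. Both were higher in each tho2-8 library than in each Col-LUC library, as were 16 of the 74 other NAC genes tested and 27.9% of all tested genes. NAC001 (AT1G01010) stood at -0.78 ± 0.19, NAC2 (AT3G15510) at -0.76 ± 0.22 and NAC004 (AT1G02230) at -1.85 ± 0.57. None of these genes has a miR164a window with a score of 3.5 or less.

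**Figure D5:**
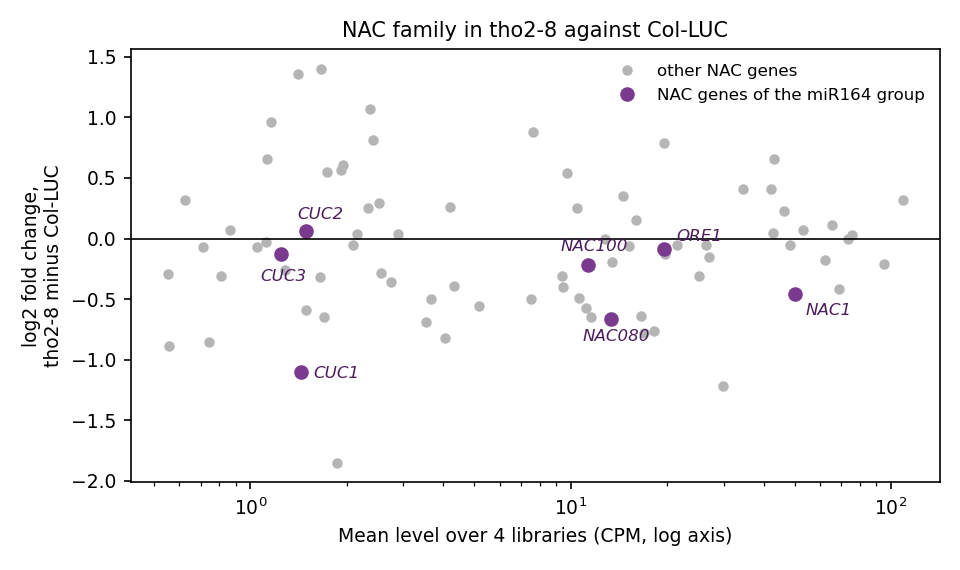
Log2 fold change (tho2-8 minus Col-LUC) against the mean level in CPM (log axis) for the tested NAC genes, with the 7 named genes in purple. The 7 genes lie between -1.10 and 0.06, within the range of the other NAC genes.

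The NAC genes whose values over the 4 libraries were nearest to each member were found by the distance between log2 CPM profiles centred on the Col-LUC mean, among 81 tested NAC genes. With 4 libraries this is a description only. NAC1 was nearest to NAC058 (distance 0.16), and NAC080 to NAC084 (0.24), which was also the next nearest to NAC1 (0.33). ORE1 was nearest to NAC032 (0.16) and to NAM (0.19), and NAC100 to NAC082 (0.13), a mediator of nucleolar stress. CUC2 was nearest to NAC045 (0.14), of phloem differentiation, and CUC3 to NAC076 (0.38), of xylem vessels. CUC1 was nearest to NAC003, at a distance of 0.47. None of the 2 nearest genes of any member was itself one of the 7.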

How the data were processed

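The authors deposited 1 table of estimated counts per gene locus for each library, without scaling. The submitters' processing notes name DESeq2 1.24.0, featureCounts 1.6.3, HISAT2 2.1.0, Trimmomatic and TAIR10. The kit was stranded, per the labels' protocols; strand and shared-read settings of the counting were not given in the sources used here. Between 2.07% and 2.16% of nuclear loci held fractional values, so estimated counts were rounded before testing. The 296 organelle loci were at 0 and were left out.

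Genes passing filterByExpr were scaled by TMM and tested with edgeR 4.0.16 (glmQLFit, glmQLFTest; R 4.3.3) with genotype as the only term, adjusted over all tested genes. Standard errors came from the F statistic. CPM uses library totals. Alternatives were DESeq2 1.42.0, limma-voom 3.58.1, other scalings, filters and prior counts, a replicate block and leaving out each library. Locus positions, exon lengths, product names and sequences came from RefSeq's TAIR10.1 annotation. NAC genes were those whose annotation names a NAC domain, without exonucleases named after NAC regulators and without AT5G52380, a locus carrying the name of VND6. The members and gene lists were chosen with earlier results of these data known. Of 98 list entries 2 were left out, since symbol and locus were not paired in the annotation. Named genes were all members, THO2, up to 4 genes of smallest p per list, 6 in the rest of the NAC family and the 2 nearest NAC genes per member; AT3G12977 was added for its site. Besides NAC1, the named genes AIR3, ARF7, AS1, BOP2, CASP1, DCL1 and NAC042 overlap a gene on the other strand. So do NAC045, NAC076, NAC13, RCA, SEP1, CAB1 and VNI2. ARF19 and DCL1 overlap a gene on the same strand. These overlaps make the values of all these genes uncertain.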

Additional observations from a re-analysis of the deposited data

How the results depend on the processing

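Under the 12 alternatives run, 0 of the 7 genes was called in each, and the estimates of CUC1 (-1.60 to -0.74), NAC1 (-0.63 to -0.28), NAC100 (-0.38 to -0.05) and NAC080 (-0.96 to -0.28) stayed below 0. NAC1 and NAC080 had an unadjusted p under 0.05 in 8 and 6 of the 12 alternatives. Both counts include the fit with a prior count of 2, whose p-values are those of the main fit. They also include the crossed replicate block, which was chosen after seeing the data. The count of members lower at that threshold was 2 with TMM and edgeR, 1 with limma-voom, 0 with library totals, and 0 to 2 with 1 library left out. CUC3 also changed sign without a library being left out, at 0.05 with limma-voom, 0.01 with the replicate block and 0.0 with the crossed replicate block. The number of members with an interval wholly below a log2 fold change of 1 was 5 in the main fit and 6 with the crossed replicate block. That number was smaller than in the main fit without Col-LUC replicate 1 and larger without Col-LUC replicate 2. With 1 library left out, estimates ran from -0.30 to 0.33 for CUC2, -0.71 to 0.87 for CUC3, -0.43 to 0.18 for ORE1 and -0.90 to 0.39 for AT3G12977. In the same fits SEP3 ran from -1.72 to 0.72, AG from -2.08 to 0.84, PSAF from -0.45 to 0.07, RCA from -0.54 to 0.19, STM from -0.51 to 0.75, KNAT1 from -0.38 to 1.02, KNAT2 from -0.28 to 1.35, CLV1 from -0.24 to 0.08, NAM from -0.39 to 0.29, NAC032 from -0.38 to 0.04, NAC045 from -0.32 to 0.35, NAC060 from -0.52 to 0.52 and NAC076 from -0.48 to 0.53. The cause was not tested.

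Over all genes edgeR called 2, against 560 by DESeq2, 1 by limma-voom, 59 without the filter on low counts and 0 to 710 with 1 library left out. Calls among other NAC genes were 0 with edgeR, 1 with DESeq2 and 0 to 2 with 1 library left out, and in the lists 0, 1 and 0 to 4. With the replicate number as a block 0 members were lower at an unadjusted p under 0.05; the numbers mark no shared batch in the labels, and deviations of replicate 1 from the genotype means correlated at -0.124 between genotypes. With the pairing crossed in the replicate block, chosen after seeing the data, 537 genes were called, of which 0 were members and 1 another NAC gene. Where 1 library was left out, the lone library of its genotype was assumed to vary like the other genotype. Depth limits the CUC genes, which rest on 11 to 40 counts a library. With 2 libraries of each genotype, an adjusted p over the threshold does not show that a gene was unchanged.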
